A study of Homo sapiens and Mus musculus with 69 samples.

Results

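The MHC class II pathway genes of small cell lung cancer (SCLC) cells are described here: the class II transactivator *CIITA*, its relative *NLRC5*, the class II chains *HLA-DRA*, *HLA-DRB1*, *HLA-DPA1*, *HLA-DPB1* and *HLA-DQA1*, the peptide-loading chains *HLA-DMA* and *HLA-DMB*, and the invariant chain *CD74*. These 10 genes were taken by name from the 20516 genes of the human table, and *Ciita*, *Nlrc5* and *Cd74* from the 18501 genes of the mouse table. Expression was measured by bulk RNA-Seq in 69 libraries of 5 SCLC lines, in 23 groups of 3. The study asked whether NOTCH1 signaling restores antigen presentation in SCLC, with MHC class I as its main readout. NOTCH1 was switched on by a vector or through an LSD1 inhibitor. All values are the deposited log2(RPKM + 1), where RPKM is reads per kilobase of transcript scaled to library size, and every difference given is between group means on this scale, which compresses changes of genes near 0.

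The H82, H524 and H69 lines are human SCLC cells. Each was sequenced as parental cells and, after transduction with a doxycycline-inducible vector for the human NOTCH1 intracellular domain (*N1ICD*), uninduced or induced with doxycycline at 1 μg/mL. H82 *N1ICD* cells with *REST* KO and H82 *N1ICD* cells labelled *STING1* KO were sequenced without and with doxycycline, so every KO library also carried the *N1ICD* vector. H524 also carried an inducible vector for REST, a transcriptional repressor of neuronal genes, again without and with doxycycline. COR-L88 cells were treated with DMSO, with the LSD1 inhibitor TAS1440 at 100 nM, or with TAS1440 plus the γ-secretase inhibitor (GSI) BMS-708163 at 2 μM, and COR-L88 cells labelled *STING1* KO were treated with DMSO or TAS1440. KP1, a mouse SCLC line, was treated with DMSO, TAS1440 (100 nM) or TAS1440 plus the GSI DBZ (10 μM). Treatments were long-term, and the labels give no time. By the study's methods, the doxycycline and drug treatments lasted at least 28 days. In the overexpression experiments the cells collected were adherent, so changes with doxycycline cannot be told apart from those of selecting adherent cells. The vectors are driven by doxycycline rather than by the cells' own promoters, and the study's immunoblots show KO cells as single-cell clones. The labels do not say which clones were sequenced or whether the libraries of a KO group shared one. Nothing in the labels says whether the 3 libraries of a group came from separate cultures, so *P* values measure only the spread between these libraries, which may be technical.

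MHC class II molecules are pairs of an α and a β chain that show peptides from the endosome to CD4+ T cells, and professional antigen-presenting cells carry them constitutively. The invariant chain CD74 fills the groove of a new class II molecule until HLA-DM exchanges its last fragment for a peptide. CIITA does not bind DNA itself. It is recruited to the S-X-Y element of class II promoters by RFX, CREB and NF-Y, the last of which recognises the CCAAT sequence of the Y box, and in most other cells it is induced by IFN-γ, with IRF1 among the factors that act on its promoter. NLRC5 belongs to the same protein family and acts on the promoters of MHC class I genes.

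On GRCh37, the human genome build of the files, *CIITA* (chromosome 16, 10960079 to 11036878) and *NLRC5* (chromosome 16, 57023397 to 57117443) lie far apart on one chromosome, and *CD74* lies on chromosome 5 (149781200 to 149792532). The other genes are in the MHC on chromosome 6, from *HLA-DRA* (32407655 to 32412823) to *HLA-DPB1* (33043767 to 33057473). *HLA-DPA1* (33032346 to 33048552) is on the opposite strand from *HLA-DPB1* and shares 4786 bases with it, and *HLA-DMA* and *HLA-DMB* overlap a read-through gene on their own strand. The library kit keeps strand, but the sources used here do not say whether strand was used in counting, so reads of the shared bases may be split uncertainly. Class II chains are also among the most polymorphic human genes, *HLA-DRB1* has near-identical relatives, and all lines were aligned to 1 reference. Levels of *HLA-DRB1*, *HLA-DPB1* and *HLA-DQB1* in different lines can therefore reflect alleles as well as expression, which was not tested. The differences tested below are within a line, while correlations over group means and remarks on levels in different lines are not.

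The promoters of the chains that were measured above 0 are shown because these chains did not move together. RefSeq (GRCh38.p14) gave a window of 300 bases around the start for 7 of the 10 genes, and the 150 bases just before the start are printed 5′ to 3′ on the strand of the gene. *CIITA*, *NLRC5* and *HLA-DRA* had no entry. Capitals mark CCAAT or its reverse complement ATTGG, searched on both strands, and a run of 10 bases shared by *HLA-DRB1*, *HLA-DMA* and *HLA-DMB* that was found by comparing the printed windows.
HLA-DRB1, chr6:32589849-32589998: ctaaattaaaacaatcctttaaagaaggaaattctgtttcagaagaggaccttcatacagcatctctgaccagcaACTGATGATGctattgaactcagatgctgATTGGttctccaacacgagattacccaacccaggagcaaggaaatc
HLA-DMA, chr6:32953098-32953247: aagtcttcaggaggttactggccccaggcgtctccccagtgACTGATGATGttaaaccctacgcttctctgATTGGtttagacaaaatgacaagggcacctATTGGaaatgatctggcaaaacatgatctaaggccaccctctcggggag
HLA-DMB, chr6:32941029-32941178: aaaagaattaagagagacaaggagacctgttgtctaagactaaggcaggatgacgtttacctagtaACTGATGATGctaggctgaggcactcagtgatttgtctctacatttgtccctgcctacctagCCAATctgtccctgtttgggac
HLA-DPB1, chr6:33075840-33075989: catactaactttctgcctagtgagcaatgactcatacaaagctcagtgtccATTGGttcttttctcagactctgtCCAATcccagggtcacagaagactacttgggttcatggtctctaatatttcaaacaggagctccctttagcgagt
HLA-DPA1, chr6:33073650-33073799: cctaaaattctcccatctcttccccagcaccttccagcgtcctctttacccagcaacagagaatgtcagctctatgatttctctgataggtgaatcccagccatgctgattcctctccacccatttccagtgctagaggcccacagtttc
CD74, chr5:150412911-150413060: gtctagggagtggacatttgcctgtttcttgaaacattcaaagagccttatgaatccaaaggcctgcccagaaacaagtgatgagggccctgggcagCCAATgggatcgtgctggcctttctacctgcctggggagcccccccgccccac

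CCAAT or ATTGG occurred in the window of 6 of the 7 genes, all but *HLA-DPA1*, and in 34.6% of the 35116 promoters of the table. ACTGATGATG, on either strand, occurred in 30 of these promoters (0.0854%), with *HLA-DRB1*, *HLA-DMA* and *HLA-DMB* the only members among them. The run was picked because these genes share it, so their presence was fixed in advance and its rarity tests nothing. A match is a description of letters, and its absence says only that these letters are not in this window.

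Genes were tested in a line where at least 3 of its libraries reached a log2 value of 1, and a gene was called at an adjusted *P* under 0.05 (limma, two-sided, Benjamini-Hochberg over all genes tested) with a difference of at least 1. Of the 10 members, 6 were tested in H82 (*NLRC5*, *HLA-DRB1*, *HLA-DPA1*, *HLA-DPB1*, *HLA-DMA* and *HLA-DMB*), 4 in H524 and 4 in H69 (*NLRC5*, *HLA-DPA1*, *HLA-DPB1* and *HLA-DMA*), and 3 in COR-L88 (*NLRC5*, *HLA-DMA* and *HLA-DMB*). *CIITA*, *CD74*, *HLA-DRA* and *HLA-DQA1* were tested in no line, and none of the 3 mouse members was tested in KP1. In H69, *NLRC5*, *HLA-DPA1* and *HLA-DMA* passed this filter only through the doxycycline group, as did *NLRC5* in H82 through the *REST* KO group with doxycycline, so these genes had to differ and their calls are descriptions. Over all comparisons and interactions, 26 of the 113 differences tested were called.

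The relative size of the libraries ranged from 0.698 to 1.52 times the median in the human table and from 0.872 to 1.07 in the mouse table, and absolute depth is unknown. *NOTCH1* followed the vector, at 4.26 to 5.56 in H82 with doxycycline against 0.88 to 1.45 without it, but it was higher in both KO groups with doxycycline, at 8.76 to 10.74 with *REST* KO and 5.97 to 7.48 with *STING1* KO. *REST* mRNA was 4.95 to 5.89 in H82 *REST* KO cells with doxycycline and 6.13 to 6.48 without the KO. *STING1* (listed as *TMEM173*) was not lower in the H82 libraries labelled *STING1* KO, at 1.27 to 2.04 with doxycycline against 1.07 to 1.17 without the KO, whereas in COR-L88 with TAS1440 it was 0.96 to 1.17 with the KO and 2.03 to 2.54 without it. The mRNA thus does not check the *STING1* KO label of H82, and the study examined the KO at the protein level, which is not analysed here. Of 8 marker genes of antigen-presenting cells in the human table, *PTPRC*, which marks all leukocytes, was listed at 0 in 40 of the 60 libraries and reached at most 0.38. Without *CD14* their summed level was at most 3.14 RPKM in any library, but *CD14*, a lipopolysaccharide co-receptor that some epithelial cells also carry, reached a log2 value of 4.88 and moved with several results below. It was 4.75 to 4.88 in induced H69 cells against 3.00 to 3.55 in uninduced ones, and 1.77 to 2.23 against 0.00 to 0.52 in H82 *REST* KO cells. In H524 it was 2.71 to 4.08 in uninduced *N1ICD* cells against 1.25 to 2.46 in parental cells (higher by 1.41 ± 0.37, adjusted *P* = 0.0133), and 3.90 to 4.32 in induced *N1ICD* cells against 0.87 to 1.98 in induced REST cells (higher by 2.75 ± 0.37, adjusted *P* = 4.76e-05). In COR-L88 it was 0.79 to 1.72 with TAS1440 and 1.80 to 2.30 with DMSO. *CD14* and *PTPRC* were singled out after their values were seen, and the part of *CD14* in the results was not tested.

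*CIITA*, the regulator on which classical class II transcription depends, stayed near the floor in every library. It was listed at 0 in 31 of the 60 human libraries, and its highest value was 0.49, in a COR-L88 library with TAS1440. The highest groups were H82 *REST* KO with doxycycline (0.39, 0.29 and 0.29), COR-L88 with TAS1440 (0.07, 0.32 and 0.49) and H524 *N1ICD* with doxycycline (0.22, 0.25 and 0.15). Every library of these groups lay above every library of its own control, which was at 0 in H82 and COR-L88 and at 0.00 to 0.02 in H524. In H82 *N1ICD* cells with doxycycline and no KO the values were 0.00, 0.01 and 0.05, and all 6 libraries labelled *STING1* KO in H82 were at 0. COR-L88 *STING1* KO cells with TAS1440 had 0.13, 0.30 and 0.02, which overlapped with the TAS1440 group without the KO. In bulk RNA, fewer cells with a transcript and less transcript in each cell cannot be told apart, which bears on this and every low value that follows. In a fit without the filter, the difference was 0.33 ± 0.02 (SE) in H82 *REST* KO (adjusted *P* = 2.16e-09), 0.29 ± 0.09 in COR-L88 (adjusted *P* = 0.0222) and 0.20 ± 0.03 in H524 (adjusted *P* = 0.000353), all under the fold threshold. For a single gene with 3 libraries in each group, an exact permutation test cannot go below 10%.

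**Figure D1:**
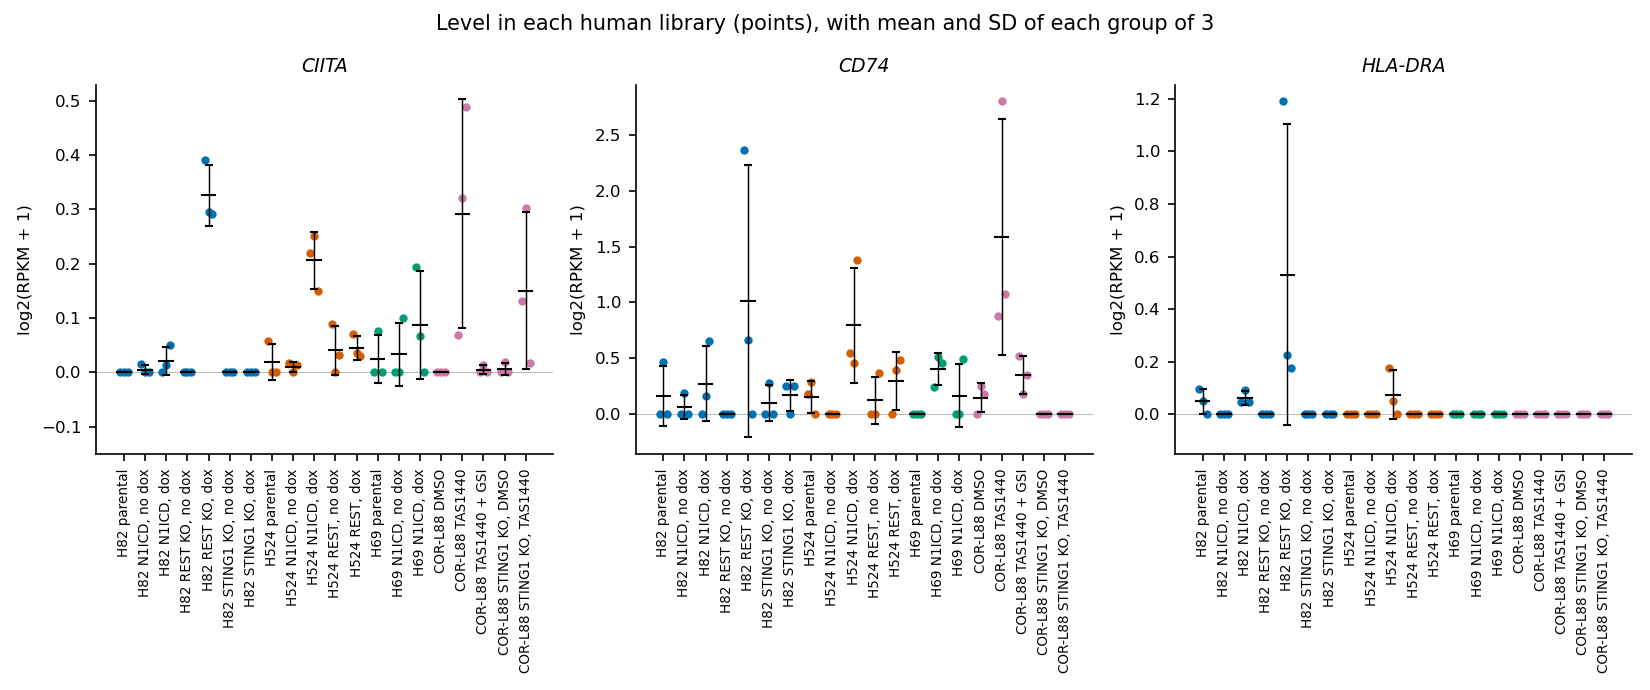
*CIITA*, *CD74* and *HLA-DRA* in log2(RPKM + 1) (vertical axis) in the 60 human libraries, by group (horizontal axis). Points are libraries, and bars are the mean and SD of 3. *CIITA* reaches at most 0.49 and *HLA-DRA* exceeds 1 in 1 library of H82 *REST* KO with doxycycline.

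*NLRC5*, the regulator of class I genes, had 9 of the 26 calls, with at least 1 in each of the 4 human lines. In H69 and H82 it passed the filter only through an induced group, so its calls there are descriptions. In H69 it was 0.01, 0.00 and 0.00 without doxycycline and 2.68, 2.53 and 2.71 with it. All 3 induced libraries were far above the parental cells (0.01 to 0.03), and the difference was 2.64 ± 0.06 (SE, adjusted *P* = 2.28e-09). H524 differed in its baseline, with *NLRC5* at 0.77 to 1.50 in parental cells. There it went from 1.00, 1.84 and 1.38 to 2.31, 2.47 and 2.77 with *N1ICD* and doxycycline, a rise of 1.11 ± 0.23 (adjusted *P* = 0.00233) that was 0.95 with quantile normalization, 0.99 with median centring, 0.90 without the uninduced library at 1.00 and 0.98 without the induced library at 2.77, each under the fold threshold. With the REST vector, H524 gave 1.42, 1.56 and 1.66 without doxycycline and 1.83, 2.21 and 2.01 with it, which was not called (0.47 ± 0.23, adjusted *P* = 0.318).

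In H82, *NLRC5* was listed at 0 in all parental libraries and was 0.87, 0.78 and 0.96 in *N1ICD* cells with doxycycline against 0.00, 0.00 and 0.02 without it. This difference of 0.87 ± 0.12 passed the test (adjusted *P* = 1.42e-05) but not the fold threshold. With *REST* KO the induced values were 2.18, 2.04 and 1.60, and all 3 uninduced libraries were at 0. With the *STING1* KO label they were only 0.21, 0.22 and 0.29, against 0.00 to 0.01 without doxycycline, so the 3 doxycycline groups did not overlap. The response to doxycycline was larger with *REST* KO by 1.07 ± 0.17 (interaction, adjusted *P* = 0.000299), and in the libraries with doxycycline *NLRC5* was 1.07 ± 0.12 higher with the KO (adjusted *P* = 2.84e-06), and both differences fell under the fold threshold without the library at 2.18 (0.95 for the induced libraries). With the *STING1* KO label the response was smaller by 0.63 ± 0.17 (adjusted *P* = 0.0287), under the fold threshold. The vector transcript was more abundant in both KO groups than in cells without a KO, and its part in these differences was not tested.

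COR-L88 responded without any vector. *NLRC5* was 0.23, 0.42 and 0.31 with DMSO, 2.13, 1.95 and 1.98 with TAS1440, and 0.66, 0.90 and 1.00 with TAS1440 plus GSI. It thus rose by 1.70 ± 0.24 with TAS1440 (adjusted *P* = 4.4e-05), and TAS1440 alone was 1.17 ± 0.24 above TAS1440 plus GSI (adjusted *P* = 0.00145). In the *STING1* KO cells *NLRC5* was 0.09, 1.05 and 0.19 with DMSO and 0.93, 1.40 and 0.56 with TAS1440, so these groups overlapped, and the difference of 0.52 ± 0.24 was not called (adjusted *P* = 0.098). With TAS1440 it was 1.06 ± 0.24 lower with the KO than without (adjusted *P* = 0.00626), a call lost with a pseudocount of 0.1, quantile normalization or median centring and without the KO library at 0.56. The response to TAS1440 itself was 1.18 ± 0.34 smaller with the KO at an adjusted *P* of 0.0499, a call lost in 14 of 18 alternative settings.

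**Figure D2:**
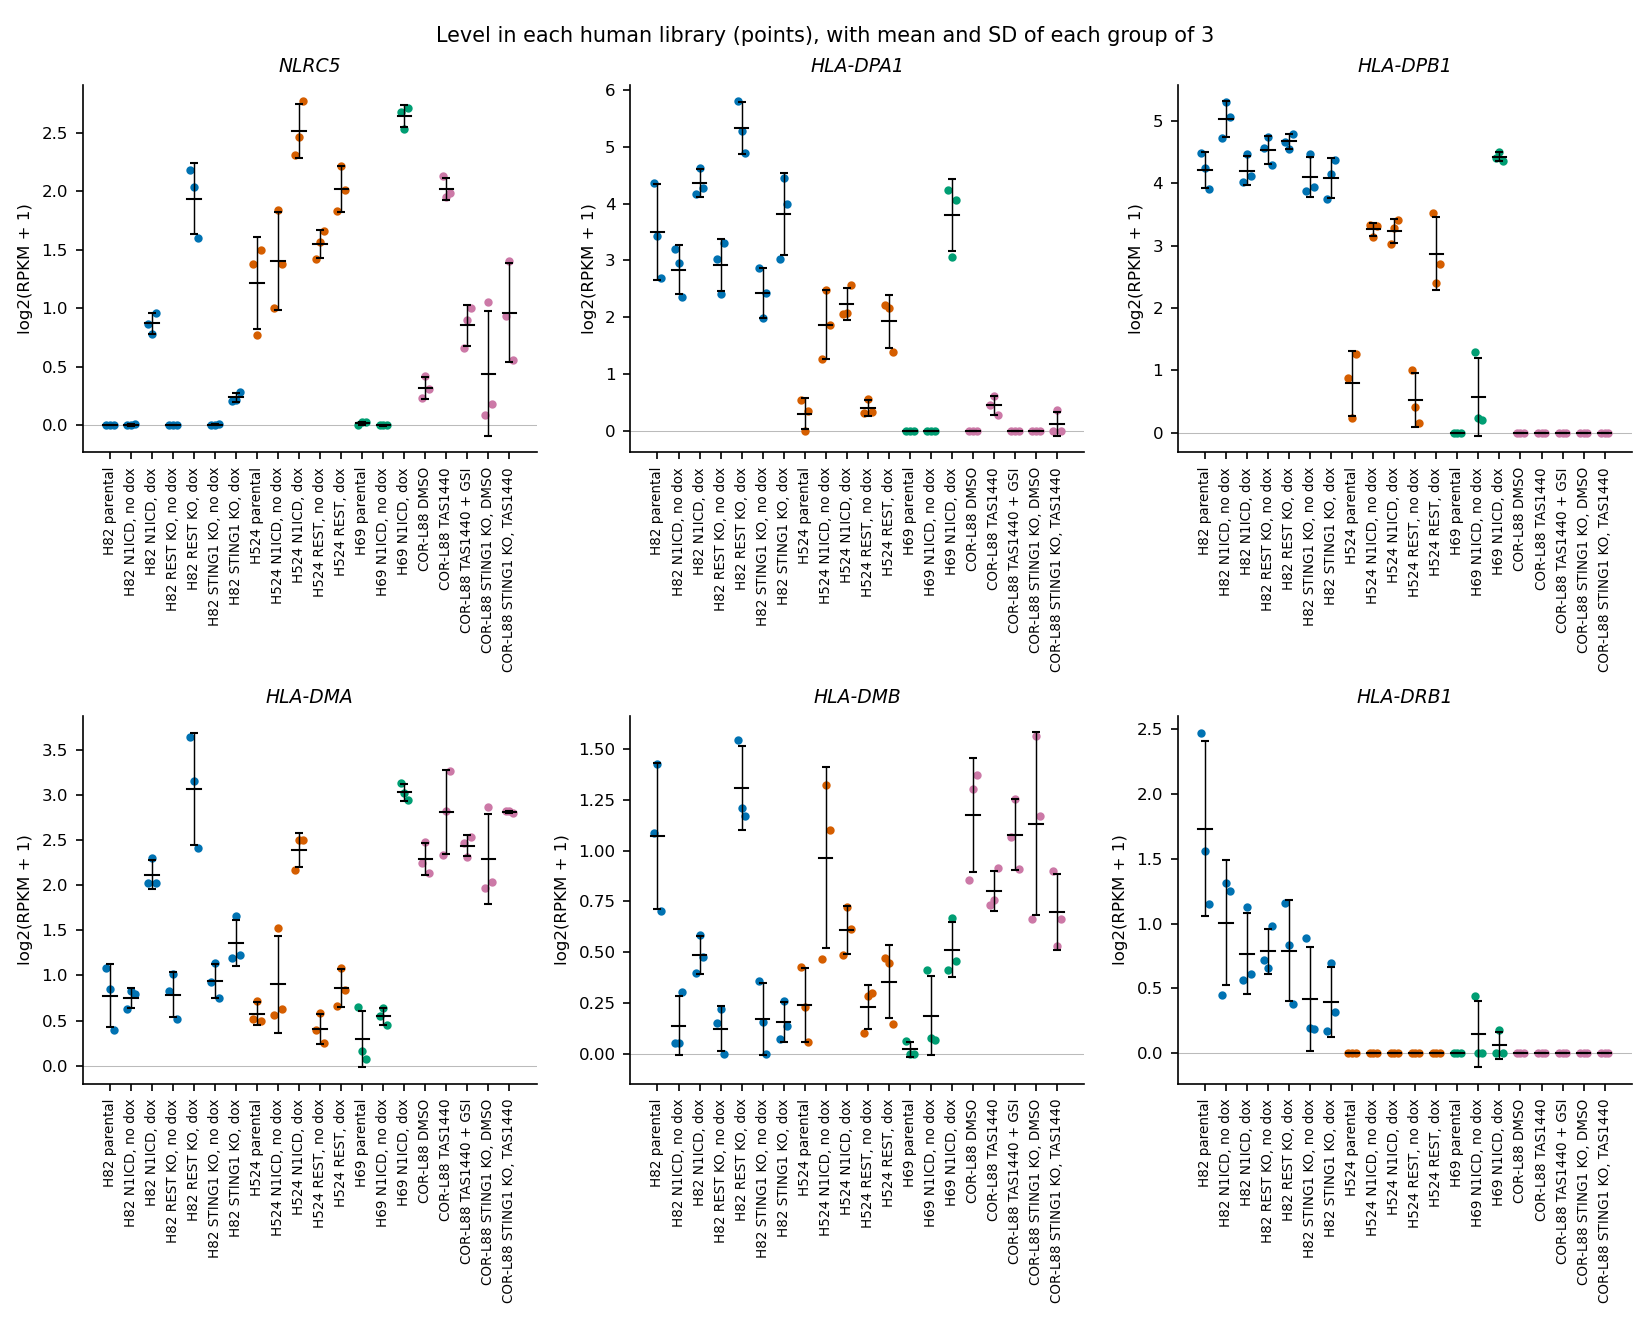
The 6 members that were tested in at least 1 line, in log2(RPKM + 1) (vertical axis), in the 60 human libraries by group (horizontal axis, colored by line). Points are libraries, and bars are the mean and SD of 3. *NLRC5* exceeds 0.03 in H69 only with *N1ICD* and doxycycline, while *HLA-DPB1* in H82 is 3.75 or higher in every group.

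The number of members called in each response to *N1ICD* can be set against the share of all tested genes. In H82 without a KO, 2 of 6 members were called, both higher, against 27.1% of all genes tested. With *REST* KO 4 of 6 were called, all higher, against 29.9%, and with the *STING1* KO label 1 of 6 against 20.2%. *NLRC5* was among the 4 with *REST* KO, and the reservation about the filter given above holds for it. In H524 it was 2 of 4 against 18.6% with *N1ICD* and 2 of 4 against 1.87% with REST, where few genes passed. In H69 all 4 tested members were called, against 41.8%, with the reservation about the filter given above. With TAS1440 in COR-L88 it was 1 of 3 (*NLRC5*) against 22.8%, and 1 of 3 against 14.7% for TAS1440 over TAS1440 plus GSI. In COR-L88 with the KO none of 3 was called against 16%, and none was for TAS1440 plus GSI over DMSO (9.02%).

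*HLA-DPA1* and *HLA-DPB1*, the α and β chain of HLA-DP, reached the highest levels of the class II chains among the members. H69 cells lacked both: *HLA-DPA1* was listed at 0 in all parental and uninduced libraries and was 4.25, 3.07 and 4.07 with *N1ICD* and doxycycline. *HLA-DPB1* was at 0 in the parental cells, 1.29, 0.23 and 0.20 in uninduced *N1ICD* cells and 4.42, 4.50 and 4.36 with doxycycline. The induced libraries stood above all others for both chains, with differences of 3.80 ± 0.26 and 3.85 ± 0.26 (adjusted *P* = 1.37e-06 and 1.12e-06).

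In H82 both chains were present before any induction, and they parted on it. *HLA-DPA1* was 4.37, 3.43 and 2.69 in parental cells. Uninduced *N1ICD* cells had 3.20, 2.96 and 2.36, and induced cells 4.17, 4.64 and 4.28. Induced cells did not overlap with uninduced cells but did overlap with parental cells. Over uninduced cells, *HLA-DPA1* rose by 1.52 ± 0.41 (adjusted *P* = 0.00481), by 2.41 ± 0.41 with *REST* KO (2.41 to 3.31 before and 4.90 to 5.81 after, adjusted *P* = 8.1e-05) and by 1.40 ± 0.41 with the *STING1* KO label (1.99 to 2.86 before and 3.03 to 4.45 after, adjusted *P* = 0.0117). The last call was lost without the uninduced library at 1.99 or the induced library at 4.45. *HLA-DPB1* went the other way without a KO, from 4.73, 5.30 and 5.06 to 4.02, 4.47 and 4.12. Uninduced and induced cells did not overlap, and the difference of −0.83 ± 0.22 passed the test but not the fold threshold (adjusted *P* = 0.00397). Parental cells had *HLA-DPB1* at 3.92 to 4.48, so the induced cells lay within the parental range and the uninduced cells above it. With *REST* KO (4.29 to 4.74 before and 4.56 to 4.79 after) and with the *STING1* KO label (3.88 to 4.47 before and 3.75 to 4.38 after) the *HLA-DPB1* groups overlapped.

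In H524 without doxycycline, the HLA-DP chains were higher in *N1ICD* cells than in REST vector cells. With doxycycline, neither chain was called between the vectors. Parental cells had *HLA-DPB1* at 0.88, 0.24 and 1.26, while *N1ICD* cells had 3.34, 3.14 and 3.31 already without doxycycline and 3.03, 3.29 and 3.41 with it. REST vector cells had 1.01, 0.42 and 0.16 without doxycycline and 3.52, 2.40 and 2.71 with it. High values thus appeared in both *N1ICD* groups and in induced REST cells. *HLA-DPB1* rose by 2.35 ± 0.31 with REST and doxycycline (adjusted *P* = 0.00136), did not pass with *N1ICD* and doxycycline (−0.02 ± 0.31, adjusted *P* = 0.967), and the interaction of vector and doxycycline was −2.37 ± 0.44 (adjusted *P* = 0.00162). *HLA-DPA1* was high in the same groups, though their order differed. It was 0.54, 0.00 and 0.35 in parental cells, 1.26, 2.48 and 1.87 in uninduced and 2.06, 2.07 and 2.56 in induced *N1ICD* cells, and 0.31, 0.57 and 0.32 in uninduced and 2.22, 2.17 and 1.39 in induced REST cells. Its rise with REST was 1.53 ± 0.29 (adjusted *P* = 0.0141), a call lost without the uninduced library at 0.32 or the induced library at 2.17, and its interaction was not called (−1.16 ± 0.42, adjusted *P* = 0.0676). Uninduced *N1ICD* cells exceeded the parental cells by 2.47 ± 0.31 for *HLA-DPB1* (adjusted *P* = 0.000149) and 1.57 ± 0.29 for *HLA-DPA1* (adjusted *P* = 0.00207), 2 of 4 members against 12.1% of all genes. The same uninduced cells had less *REST* (2.66 to 4.20) than parental cells (4.52 to 4.95), and *NOTCH1* at 0.79 to 1.52 against 0.23 to 0.73, and *NOTCH1* was also higher in REST vector cells with doxycycline (1.41 to 2.29) than without (0.46 to 0.53). The part of these in the HLA-DP levels was not tested.

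COR-L88 had almost no measured HLA-DP. *HLA-DPB1* was listed at 0 in all 15 of its libraries, and *HLA-DPA1* was above 0 only with TAS1440, at 0.45, 0.62 and 0.28, and in 1 *STING1* KO library with TAS1440 (0.37).

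**Figure D3:**
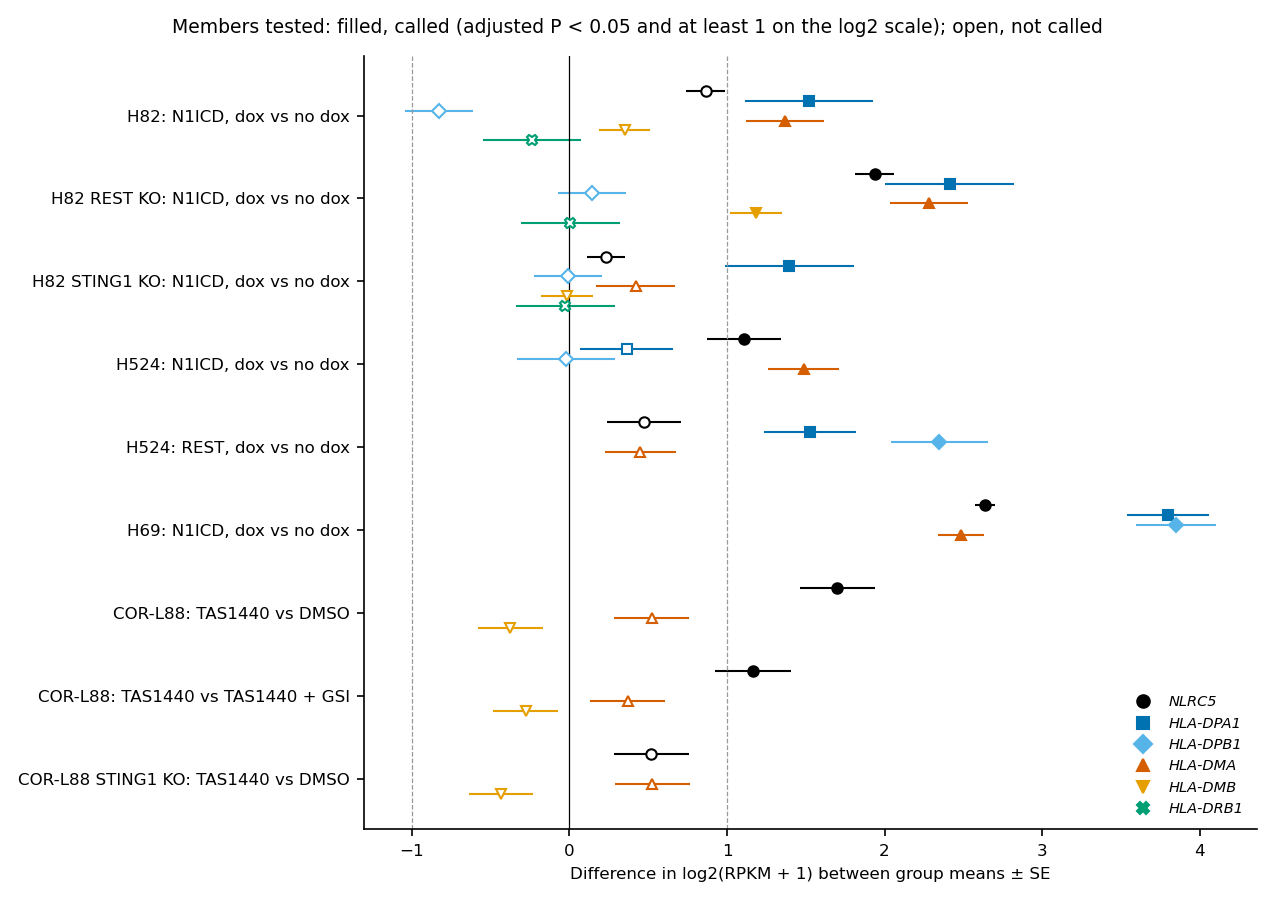
Difference in log2(RPKM + 1) between group means (horizontal axis) with its SE from limma, for each tested member in 9 comparisons (vertical axis); filled symbols were called and dashed lines mark a difference of 1. *HLA-DPB1* reaches 3.85 in H69, lies at −0.83 in H82 and at −0.02 in H524 with *N1ICD*, and rises in H524 with REST.

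Among the DR and DQ chains that are members, *HLA-DRA* and *HLA-DQA1* were nearly silent, and *HLA-DRB1* was low outside H82. *HLA-DRA*, the α chain without which no HLA-DR forms, was listed at 0 in 50 of 60 human libraries and in all libraries of 16 of 20 groups. It was 1.19, 0.22 and 0.18 in H82 *REST* KO with doxycycline, 0.05 to 0.09 in H82 *N1ICD* cells with doxycycline, and 0.00 to 0.10 in H82 parental cells. A single library thus held the only value above 1. *HLA-DRB1* was measured mainly in H82, highest in parental cells (2.47, 1.56 and 1.15) and at 0.17 to 1.31 in the vector groups. It was 0.45, 1.31 and 1.25 without doxycycline and 0.57, 1.13 and 0.61 with it, overlapping groups, and it was called in no comparison (induction without a KO −0.24 ± 0.31, adjusted *P* = 0.55). *HLA-DQA1* was listed at 0 in 58 of 60 libraries and was at most 0.09.

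Its partner *HLA-DQB1*, which is not one of the 10 genes, was the only other class II gene of a list of 6 that passed the filter, and only in H82. It was 3.92 to 4.14 in parental cells, 3.87, 4.22 and 3.90 in uninduced *N1ICD* cells and 1.97, 2.48 and 1.86 with doxycycline, a fall of 1.89 ± 0.19 with no overlap (adjusted *P* = 1.94e-07). The fall with doxycycline was also called with *REST* KO (2.22 to 2.50 before and 0.40 to 0.75 after) and with the *STING1* KO label (1.64 to 2.19 before and 0.50 to 0.87 after). In H82, therefore, *HLA-DPA1* rose while *HLA-DQB1* fell in the same libraries, and *HLA-DPB1* and *HLA-DRB1* lay between them.

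The 2 chains of HLA-DM, which loads peptides and does not itself present them, also differed from each other. *HLA-DMA* rose with *N1ICD* in all 3 lines with the vector. In H69 it was 0.56, 0.64 and 0.45 without and 3.13, 3.02 and 2.95 with doxycycline, a difference of 2.49 ± 0.14 (adjusted *P* = 4.64e-07). In H524 it was 0.56, 1.52 and 0.62 against 2.17, 2.50 and 2.50, a rise of 1.49 ± 0.23 (adjusted *P* = 0.000169). The REST vector gave 0.40, 0.58 and 0.25 against 0.66, 1.08 and 0.84, which did not overlap but was not called (0.45 ± 0.23, adjusted *P* = 0.325). Among the induced H524 cells *HLA-DMA* was 1.53 ± 0.23 higher with *N1ICD* than with REST (adjusted *P* = 0.000106), the only call among 4 members against 23.8% of all genes. The interaction of vector and doxycycline was 1.04 ± 0.32 (adjusted *P* = 0.0356), a call lost in 11 of 18 alternative settings, and with *HLA-DPB1* it made 2 of 4 against 15.6%.

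H82 uninduced cells had *HLA-DMA* at 0.63, 0.83 and 0.79, and induced cells at 2.03, 2.30 and 2.02, a rise of 1.37 ± 0.25 (adjusted *P* = 0.000186). With *REST* KO it went from 0.82, 1.01 and 0.52 to 3.65, 3.15 and 2.41, by 2.28 ± 0.25 (adjusted *P* = 4.68e-07), so every induced KO library was above every induced library without the KO. With the *STING1* KO label it went from 0.93, 1.14 and 0.76 to 1.20, 1.66 and 1.23, which did not overlap and was not called (0.42 ± 0.25, adjusted *P* = 0.195). The interactions were not called for either KO (0.92 ± 0.35, adjusted *P* = 0.0857 and −0.95 ± 0.35, adjusted *P* = 0.101). COR-L88 already had *HLA-DMA* at 2.14 to 2.48 with DMSO, and at 2.33, 2.83 and 3.27 with TAS1440 the groups overlapped (0.52 ± 0.24, adjusted *P* = 0.076).

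*HLA-DMB* was called only in H82 with *REST* KO, from 0.15, 0.22 and 0.00 to 1.54, 1.21 and 1.17 (1.19 ± 0.16, adjusted *P* = 8.58e-06), a difference that was 0.78 with quantile normalization. Without a KO it went from 0.05, 0.05 and 0.30 to 0.40, 0.59 and 0.48, groups that did not overlap (0.35 ± 0.16, adjusted *P* = 0.0838). Every library of the other H82 *N1ICD* groups was below every parental library (1.09, 1.43 and 0.70), and parental cells exceeded uninduced *N1ICD* cells by 0.94 on the log2 scale (adjusted *P* = 0.000762). In COR-L88 *HLA-DMB* was 0.85 to 1.37 with DMSO and 0.73 to 0.91 with TAS1440 (−0.38 ± 0.21, adjusted *P* = 0.135), the opposite sign to *HLA-DMA*.

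*CD74*, which guides class II chains to the endosome, was listed at 0 in 31 of 60 libraries and was erratic among replicates. It was highest in COR-L88 with TAS1440, at 0.87, 2.80 and 1.08, against 0.00, 0.25 and 0.18 with DMSO and 0.52, 0.18 and 0.35 with TAS1440 plus GSI, so the TAS1440 group stood apart. All 6 *STING1* KO libraries of COR-L88 listed it at 0, with and without TAS1440. In the fit without the filter *CD74* was called for TAS1440 over DMSO (1.44 ± 0.38, adjusted *P* = 0.00993), for TAS1440 over TAS1440 plus GSI (1.24 ± 0.38, adjusted *P* = 0.0279) and for the KO over no KO with TAS1440 (−1.59 ± 0.38, adjusted *P* = 0.0153), but not for the interaction (adjusted *P* = 0.153).

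With *N1ICD* and doxycycline *CD74* was 0.54, 0.45 and 1.38 in H524 against 0 in all 3 uninduced libraries (0.79 ± 0.22 without the filter, adjusted *P* = 0.0208). In H82 with *REST* KO it was 2.37, 0.67 and 0.00, of which the first is the library with *HLA-DRA* at 1.19 and *CIITA* at 0.39. It was the only one of the 60 human libraries in which *HLA-DRA* (1.19), *HLA-DRB1* (1.16) and *CD74* (2.37) all reached a log2 value of 1. In H82 without a KO (0.00, 0.16 and 0.65) and in H69 (0.00, 0.00 and 0.49) the induced libraries overlapped with their controls, and in H69, where the HLA-DP chains rose most, *CD74* was 0.24 to 0.51 without doxycycline.

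*Cd74* was also detected in the mouse line. In KP1 it was at most 0.01 with DMSO and with TAS1440 plus GSI, and 3.62, 0.68 and 1.30 with TAS1440. *Ciita* was at most 0.05 and *Nlrc5* at most 0.06 in any KP1 library. The class II β chain gene *H2-Ab1* was 0.09, 0.62 and 0.03 with TAS1440 and listed at 0 in the other 6 libraries, *H2-DMb1* was 0.29, 0.13 and 2.41 against 0, and *H2-DMa* was 0.95, 0.47 and 1.95 against 0.12 to 0.35. The 3 TAS1440 libraries differed in which gene was high, since *Cd74* led in one and both *H2-DM* genes in another. None passed the filter, and without it *Cd74* was not called (1.86 ± 0.67 over DMSO, adjusted *P* = 0.0844, and 1.86 ± 0.67 over TAS1440 plus GSI, adjusted *P* = 0.094). *Ptprc* was listed at 0 in 8 of 9 KP1 libraries, while *Cd14* was 1.22 to 1.41 with TAS1440, 0 with DMSO and about 0.10 with GSI.

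**Figure D4:**
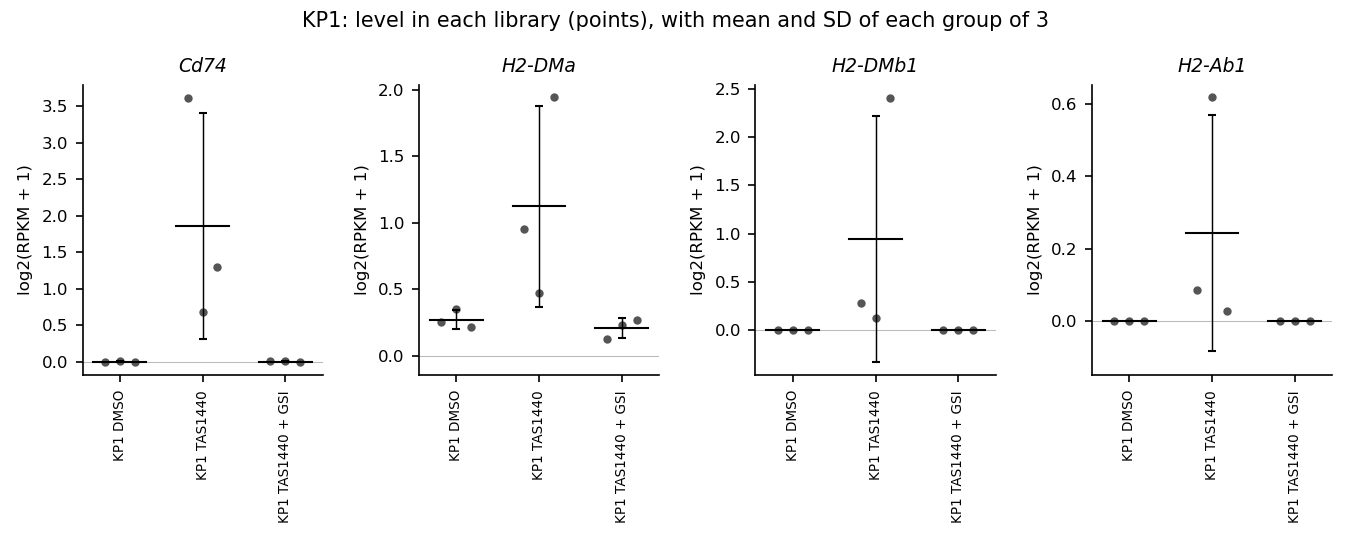
*Cd74* and 3 mouse class II genes in log2(RPKM + 1) (vertical axes, separate scales) in the 9 KP1 libraries by treatment (horizontal axis). Points are libraries, and bars are the mean and SD of 3. All 4 genes are at or near 0 outside the TAS1440 group except *H2-DMa*, and *Cd74* ranges from 0.68 to 3.62 within it.

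Comparisons in which the vector was not induced served as background. The exception with members called was uninduced *N1ICD* against parental H524 cells, where both HLA-DP chains were higher. H82 *N1ICD* cells without doxycycline and parental cells were compared without a call among 6 members (6.41% of all genes called), although *HLA-DPB1* was higher by 0.82 ± 0.22 (adjusted *P* = 0.0174) and *HLA-DMB* was lower, as given above. For *REST* KO against no KO without doxycycline none was called (6.24%), and for the *STING1* KO label none (14.4%), with *HLA-DPB1* lower by 0.93 ± 0.22 (adjusted *P* = 0.00305). None of 4 members was called between uninduced and parental H69 cells (5.27%) or between uninduced REST vector and parental H524 cells (0.264%), and none of 3 was for the KO with DMSO in COR-L88 (1.47%). With doxycycline, *REST* KO changed 1 of 6 (17.6%) and the *STING1* KO label none of 6 (16.5%). The interactions called 1 of 6 members for *REST* KO (12.9%), none of 6 for the *STING1* KO label (7.12%) and 1 of 3 for TAS1440 with the KO in COR-L88 (4.23%), and the KO with TAS1440 called 1 of 3 (6.53%). For *REST* KO, the member called with doxycycline and in the interaction was *NLRC5*, with the reservation about the filter given above.

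Few of the factors that bind the promoters shown above were called. Of 7 such genes (*RFX5*, *RFXAP*, *RFXANK*, *NFYA*, *NFYB*, *NFYC* and *CREB1*), all were tested in every human line. None was called with *N1ICD* in H82 or H524 or with TAS1440 in COR-L88, against 27.1%, 18.6% and 22.8% of all genes. In H69 *RFXANK* (1.72) and *NFYC* (1.20) were called higher, 2 of 7 against 41.8% of all genes. In H524, *RFXAP* was 1.14 ± 0.30 higher in uninduced *N1ICD* cells than in parental cells (adjusted *P* = 0.0147), 1 of 7 against 12.1% of all genes. Both HLA-DP chains were higher in this contrast, and a link to *RFXAP* was not tested. In induced REST cells, where *HLA-DPB1* was also high, *RFXAP* was 1.55 to 2.22, within the range of parental cells (1.16 to 2.52). Among induced H524 cells *RFXAP* was higher with *N1ICD* than with REST (1.15 ± 0.30, adjusted *P* = 0.00756) and *RFX5* lower (−1.05 ± 0.24, adjusted *P* = 0.00356), 2 of 7 against 23.8%. None of the 7 mouse genes was called with TAS1440 in KP1, against 18.8% of all genes there.

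Genes of the interferon input to *CIITA* and *NLRC5* differed by line. *IFNG*, the gene of IFN-γ, named here outside the rule for lists because it is the inducer itself, was listed at 0 in all human libraries except 1 of H524 with REST and doxycycline (0.58). *IRF1*, a transcription factor that acts on the *CIITA* promoter, rose by 2.40 ± 0.21 in H82, 3.20 ± 0.20 in H524 and 1.52 ± 0.16 in COR-L88 with TAS1440, and in H69 the difference of 0.29 ± 0.12 was not called. *IRF2* rose by 4.51 ± 0.16 in H69, 2.02 ± 0.28 in H82 and 1.75 ± 0.31 in H524 and was not called in COR-L88 (0.43 ± 0.15). These rises are over uninduced vector cells, in which *IRF2* was below the parental level in H69 (0.00 to 0.75 against 3.69 to 3.83) and H524 (2.29 to 3.48 against 4.11 to 4.74). Induced cells had 4.81 to 4.85 in H69 and 4.53 to 4.71 in H524, the latter within the range of parental cells. Likewise, *IRF1* in H69 was 2.46 to 2.97 in parental cells and 1.96 to 2.05 in induced ones. *JAK1*, a kinase of the interferon receptors, was called higher in the 3 vector lines (1.93, 1.66 and 1.16 in H82, H524 and H69), *IFNGR1* in H82 (1.04) and COR-L88 (2.14), and *IFNGR2* in H69 (1.04). In KP1, *Ifngr2* (1.60) and *Irf1* (1.09) were called higher with TAS1440.

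Several endosomal enzymes that prepare class II peptides were higher. *CTSS*, cathepsin S, which trims the invariant chain, rose in all 4 human lines, by 5.68 ± 0.27 in COR-L88 (from a mean of 1.34 to 7.02), 2.95 ± 0.34 in H82, 1.94 ± 0.18 in H69 and 1.76 ± 0.27 in H524. *CTSL* was called in H69 (8.06), H524 (1.74) and H82 (1.01). In H69 the uninduced libraries were far apart, at 6.85, 0.00 and 0.00, with parental cells at 3.64 to 4.55 and induced cells at 10.3 to 10.43, and in H82 uninduced cells (11.76 to 12.07) were already above parental cells (8.67 to 9.10). *CTSB* was called in COR-L88, H69 and H82 (2.39, 1.48 and 1.20), and *LGMN* higher in COR-L88 and H69 (1.82 and 1.05) but lower in H82 (−1.03), where its mean was 5.14 in parental, 6.18 in uninduced and 5.15 in induced cells. *CTSD* was called in H524 (2.06) and COR-L88 (1.74), and *IFI30* in H69 (1.37). Of the tested genes of this list of 10, 3 of 7 were higher and 1 lower in H82, 3 of 7 were higher in H524, 5 of 7 in H69 and 4 of 6 in COR-L88, against 27.1%, 18.6%, 41.8% and 22.8% of all genes. In KP1, 5 of 6 were higher with TAS1440, against 18.8% (*Ctsd* 3.57, *Ctsl* 1.90, *Ctsb* 1.85, *Ifi30* 1.53 and *Lgmn* 1.04) and 4 of 6 in TAS1440 over TAS1440 plus GSI (16.5% of all genes). Between TAS1440 plus GSI and DMSO, KP1 had 1.21% of all genes called.

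The genes NLRC5 is known to act on, those of MHC class I, were higher in every comparison in which *NLRC5* rose with *N1ICD* or TAS1440, and in some in which it was not called. Of 7 (*HLA-B*, *HLA-C*, *HLA-E*, *HLA-F*, *B2M*, *TAP1* and *PSMB9*), 5 of 7 tested were called higher with *N1ICD* in H82, 6 of 6 in H524, 7 of 7 in H69 and 6 of 6 with TAS1440 in COR-L88. In these comparisons 27.1%, 18.6%, 41.8% and 22.8% of all genes tested were called. The medians were 2.5, 3.18, 4.82 and 4.35 against medians over all genes of −0.00264, −0.0181, 0.0827 and 0.00797. The study showed class I genes for these samples, so the direction of these genes is not independent evidence. In the vector lines the rises are over uninduced cells. Between uninduced and parental cells, 1 of 7 was called higher in H82 (6.41% of all genes). In H524, 2 of 6 were called higher and 1 lower (12.1%), and in H69 1 of 7 lower (5.27%). *HLA-C* in H69 was 4.62 to 4.90 in parental, 1.13 to 1.88 in uninduced and 7.15 to 7.24 in induced cells. In H82 with the *STING1* KO label 3 of 7 were called (median 0.724), against 20.2% of all genes. In the libraries with doxycycline, 6 of 7 were lower than without the KO (median −1.75), against 16.5%. With TAS1440 in COR-L88, 6 of 6 were lower with the KO (median −2.5), against 6.53%. With *REST* KO in H82 all 7 rose (median 3.55), against 29.9%. With REST in H524 5 of 6 were called higher (median 1.86), against 1.87%. With TAS1440 in COR-L88 *STING1* KO cells 5 of 6 were higher (median 2.31), against 16%. *NLRC5* was called in neither of these last comparisons. *HLA-B*, the heavy chain with the largest changes, rose by 4.77 ± 0.30 in H82, 7.21 ± 0.30 in H82 *REST* KO and 1.45 ± 0.30 with the *STING1* KO label. Its order across these 3 groups, and that of *TAP1*, was that of *NLRC5*. In KP1, where *Nlrc5* stayed near 0, *B2m* rose by 4.69 ± 0.21 and was the only one of 4 tested genes to be called, against 18.8% of all genes.

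**Figure D5:**
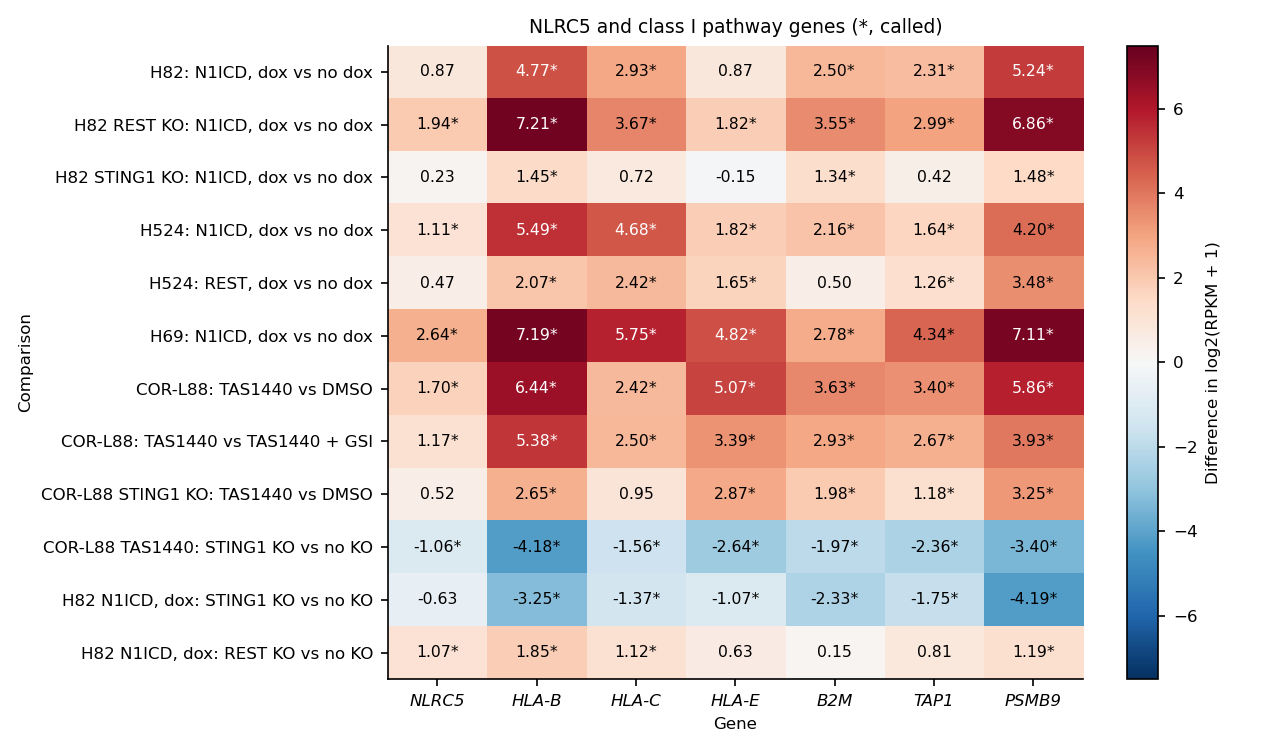
Difference in log2(RPKM + 1) (color and printed value) of *NLRC5* and 6 MHC class I pathway genes (columns) in 12 comparisons (rows), with an asterisk for called differences. *NLRC5* reaches 2.64 and *HLA-B* 7.19 in H69, and all 7 genes are lower with the *STING1* KO label than without it among the induced H82 libraries and the TAS1440 libraries of COR-L88.

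The genes whose pattern was most like that of a member were found by Pearson's r over the 20 human group means, among 15888 genes (15887 where the member itself was one of them), as a description without a test, since libraries of a line share their background. For *NLRC5* they were *TAP1* (r = 0.909), *TMEM173*, which is *STING1* (0.903), and *PRKCE* (0.897). For *CIITA* they were *IL1RN* (0.905), *CLIC2* (0.866) and *PTHLH* (0.862), and *CD74* had an r of 0.843 with *CIITA*. For *CD74* they were *IL1RN* (0.881), *IL6* (0.88) and *FCGR2A* (0.861). For *HLA-DRA* they were *FRG2* (0.987), *SIGLEC10* (0.982) and *CEACAM21* (0.982), which rest on the H82 *REST* KO group with doxycycline. *HLA-DRB1*, by contrast, had an r of −0.11 with *CIITA* and −0.405 with *NLRC5*. It was measured mainly in H82, so these values also hold differences between lines.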

How the data were processed

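Poly(A) RNA of 69 libraries was sequenced with a stranded kit. Per the labels and methods, the authors trimmed reads with Cutadapt, aligned them with STAR (hg19 or mm10), quantified genes with RSEM and scaled libraries by TMM (edgeR), with versions not given in the sources used here. The deposited values are log2(RPKM + 1), in separately normalized human and mouse tables, with the pseudocount of 1 inferred from the floor of exactly 0. Depth is known only relative to other libraries, from ratios of the lowest values, and limits genes near 0.

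Groups came from the sample labels. limma 3.58.1 (R 4.3.3) fitted 1 mean per group of a line, with a variance trend, over all genes that reached a log2 value of 1 in 3 or more of the line's libraries. It was tested on simulated data. Positions came from a GRCh37 annotation, and Python 3.11.15 with matplotlib 3.10.9 drew the figures. Members, lists and tests were chosen with earlier results of these data known. Named beyond the members were at most 6 genes per list, those called most often, the manipulated genes, and the 3 genes of most similar pattern. The counts over the list of interferon-pathway genes are not reported here. Alternatives were no filter, a pseudocount of 0.1, quantile normalization, median centring, only the compared groups, no trend and leaving out each library.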

Additional observations from a re-analysis of the deposited data

Results flagged for a closer look

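4 interactions of a member were called, each a difference between 2 responses in the same line. *NLRC5* responded more to doxycycline in H82 *N1ICD* cells with *REST* KO than without it, by 1.07 ± 0.17 (adjusted *P* = 0.000299). It entered the H82 fit only through the induced *REST* KO group, so this value is a description. The response of *NLRC5* to TAS1440 in COR-L88 cells labelled *STING1* KO minus that without the KO was −1.18 ± 0.34 (adjusted *P* = 0.0499). In H524, the response of *HLA-DPB1* to doxycycline with *N1ICD* minus that with REST was −2.37 ± 0.44 (adjusted *P* = 0.00162), and *HLA-DMA* responded more with *N1ICD*, by 1.04 ± 0.32 (adjusted *P* = 0.0356). Groups held 3 libraries each, too few to look for single outlying libraries by a rule.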

How the results depend on the processing

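Of the 26 differences called for members, 17 were called under all alternatives and 9 were lost under at least 1, and none of the 26 changed sign. Of the 87 not called, 15 were called under at least 1 alternative, and 27, the largest of them 0.19 in size, changed sign in some.

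With a pseudocount of 0.1 the number of members called rose from 2 to 4 for *N1ICD* in H82, from 1 to 2 with the *STING1* KO label, from 1 to 3 for *REST* KO and from 0 to 2 for the *STING1* KO label among induced H82 libraries, from 1 to 2 for the *REST* KO interaction, and from 0 to 1 for the *STING1* KO interaction and for uninduced against parental H82 and H69 cells. It fell from 2 to 1 for the H524 interaction and from 1 to 0 for the KO with TAS1440 and for the interaction in COR-L88. This pseudocount spreads values near 0. With quantile normalization the count was 2 for *REST* KO among induced libraries, 1 for uninduced against parental H82 cells, 1 for *N1ICD* in H524 and 0 for the KO with TAS1440. Median centring gave 1 for *N1ICD* in H524 and 0 for the KO with TAS1440 and for the COR-L88 interaction, which was also 0 with only the compared groups. Without the filter, where *CD74* was tested, the count was 2 for TAS1440 over DMSO, over TAS1440 plus GSI and for the KO with TAS1440, 1 for the H524 interaction and 0 for the COR-L88 interaction. Leaving out the variance trend changed no call. Apart from the filter and the pseudocount, the cause of these changes was not tested.

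Without 1 library at a time, and with the tested genes kept, the counts ranged from 0 to 1 for the COR-L88 interaction, the KO with TAS1440, *N1ICD* with the *STING1* KO label, and the uninduced H82 cells against parental cells or with the *STING1* KO label. They ranged from 0 to 2 for *REST* KO among induced libraries and for its interaction, where 0 came without the *REST* KO library with *NLRC5* at 2.18, and from 1 to 2 for *N1ICD*, REST and their interaction in H524. No paired analysis was possible because the compared groups share no replicate number. Depth limits genes near 0, *CIITA*, *CD74* and *HLA-DRA* among them, and 3 libraries per group limit the precision of every difference.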
